A study of Mus musculus with 6 samples.

Results

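ErbB receptors are tyrosine kinases of the cell surface that form pairs when a ligand of the epidermal growth factor (EGF) or neuregulin family binds. The 6 genes described here were taken as a list: the receptors Erbb2, Erbb3, Erbb4 and Egfr, the ligand Nrg1 and the receptor inhibitor Errfi1, 6 of the 35312 genes (21938 protein-coding, 13374 for long non-coding RNA) of the annotation used. ErbB3 and ErbB4 bind neuregulins, ErbB2 has no known ligand of its own and serves as their partner, EGFR binds EGF and its relatives, and ERRFI1 binds the kinase domain of the active receptor and blocks it. In the nervous system, neuregulin signalling is known for its part in the growth and survival of myelinating glia and of their precursors.

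The data are cap analysis of gene expression (CAGE) tags, short reads from the capped 5′ ends of RNA, from the nuclear fraction of mouse cells. A pair of lines was compared, with 3 libraries each. R08 is a male line of embryonic stem cells (mESCs), grown without feeder cells in medium with leukemia inhibitory factor and 15% fetal bovine serum. Oli-neu is a line derived from oligodendrocyte progenitors (mOPCs), expanded in medium with basic fibroblast growth factor (bFGF) at 10 ng/ml, platelet-derived growth factor (PDGF-BB) at 1 ng/ml, T3 at 340 ng/ml and L-thyroxine at 400 ng/ml, a recipe that names neither EGF nor neuregulin. As background, oli-neu was made with the t-neu oncogene, an activated form of ErbB2, so that its cells carry an ErbB2 transgene that R08 cells do not have. Each cell type is represented by 1 line, and no source used here says that the 3 CAGE libraries of a line came from separate cultures, so the p-values measure the spread between these libraries, which may be technical. The library name written inside the files differs between the lines and is the same within each line, and library preparation and cell type cannot be told apart.

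Libraries held 16657021 to 40928704 tags, and levels are given in TPM, here the tags per 1000000 tags of the library. The lines differed at most genes: 91.2% of the 16707 genes tested at their 5′ ends passed the test (adjusted p under 0.05 by the quasi-likelihood test of edgeR), 43.4% being higher in mOPCs and 47.8% in mESCs, and the libraries of the 2 lines did not overlap for 91.4%. Passing the test is therefore the usual outcome, and the sizes of the differences are given below. All 8 mESC markers were higher in mESCs (summed 5′ end level of 4018 to 4381 TPM in mESC libraries and 17.4 to 23.5 in mOPC libraries), with Pou5f1, Nanog, Zfp42, Dppa5a and Tdgf1 at 0 in mOPCs. Of 7 markers of oligodendrocyte progenitors, 6 were higher in mOPCs (sums of 7.23 to 8.16 in mESC libraries and 1519.5 to 1615 in mOPC libraries), while Nkx2-2 was at 0 in mOPCs and Pdgfra differed little (5.41 to 5.70 against 7.82 to 8.60). Markers of mature oligodendrocytes were also higher in mOPCs for 4 of 5 genes, with sums of 248 to 283 against 13.3 to 14.0. Markers of astrocytes summed to 78.6 to 93.5 TPM in mESCs and at most 1.14 in mOPCs, and markers of microglia to at most 0.139 in any library. Of the astrocyte sum in mESCs, Gja1 alone made up 70.0 to 85.7 TPM, while Gfap was low in both lines and higher in mOPCs. Markers of neurons summed to 8.04 to 8.66 TPM in mESCs and 80.6 to 101.0 in mOPCs, with 3 of 4 genes at 0 in mOPCs and Syt1 higher there.

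CAGE tags of each gene were summed within 500 bp of its annotated 5′ ends on the gene's strand, and separately over the rest of the gene. Single positions are given as deposited, in mm10 coordinates. Start sites usually lie at a pyrimidine followed by a purine. At the position with the most tags in 9628 RefSeq promoter windows with at least 100 tags there, that step was formed by the deposited base and the next base downstream in 88.5%, and by the deposited base and the base before it in 1.24%, in the same way on both strands. The deposited position thus lay 1 base upstream of the purine of the step, which bears on the sums only for tags at the edge of a window.

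In mm10, Erbb2 lies at chr11:98412470-98437716 on the plus strand (3 transcripts) and Egfr at chr11:16752203-16918158 on the plus strand (5 transcripts). Erbb3 lies at chr10:128567523-128589652 on the minus strand (1 transcript) and Erbb4 at chr1:68032186-69108059 on the minus strand (5 transcripts). Nrg1 lies at chr8:31814551-32884029 on the minus strand and Errfi1 at chr4:150853919-150868892 on the plus strand (3 transcripts).

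Of the 6 genes, 4 had promoter windows in the RefSeq table (GRCm38.p6), and in 3 of these the position with the most tags lay close to the RefSeq start. These 3 are shown, from 100 bases before the RefSeq start to 30 bases from it onward. Capitals mark the deposited position with the most tags (in both lines for Errfi1, in mOPCs for Erbb2, whose mESC top lies outside the stretch shown, and in mESCs for Egfr) and the base after it, and in Errfi1 also the motifs TATAAA and TGACGTCA. The strand is plus in each case.

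Errfi1, chr4:150854970-150855099: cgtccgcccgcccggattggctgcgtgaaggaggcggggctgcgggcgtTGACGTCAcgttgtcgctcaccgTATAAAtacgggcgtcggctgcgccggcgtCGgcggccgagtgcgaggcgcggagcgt

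Erbb2, chr11:98412384-98412513: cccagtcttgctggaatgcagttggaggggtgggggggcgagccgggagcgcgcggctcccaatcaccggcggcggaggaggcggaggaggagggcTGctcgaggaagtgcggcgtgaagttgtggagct

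Egfr, chr11:16752103-16752232: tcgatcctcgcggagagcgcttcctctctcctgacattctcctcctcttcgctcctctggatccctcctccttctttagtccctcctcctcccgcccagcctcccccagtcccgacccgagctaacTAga

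In Errfi1, TATAAA began 30 bp upstream of the position with the most tags and TGACGTCA, the letters of a cAMP response element, began 53 bp upstream of it. Among 32851 RefSeq windows of 300 bases, 13.6% held TATAAA on either strand, 1.99% held it on the gene's strand within the bases 15 to 40 bp before the start, and 1.79% held TGACGTCA, which reads the same on both strands. Neither motif was found in the windows of Erbb2, Egfr or Erbb4. GGGCGG was present on the opposite strand in Errfi1 and Egfr and occurred on either strand in 35.7% of all windows.

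At the annotated 5′ ends, Erbb2, Erbb3, Erbb4 and Errfi1 were higher in mOPCs, and Egfr and Nrg1 were higher in mESCs. All 6 genes passed the test, where 91.2% of all genes did (43.4% higher in mOPCs, 47.8% higher in mESCs), and the libraries of the lines did not overlap for any of them. Egfr, Nrg1 and Erbb4 entered the test through the line in which they were high. Adjusted p-values of the edgeR test ran from 2.67e-68 for Erbb4 to 5.11e-17 for Errfi1. These are bulk libraries, in which fewer cells using a gene and less RNA per cell cannot be told apart. Fold changes are mOPCs over mESCs, and the median log2 fold change over all genes tested was -0.12.

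**Figure D1:**
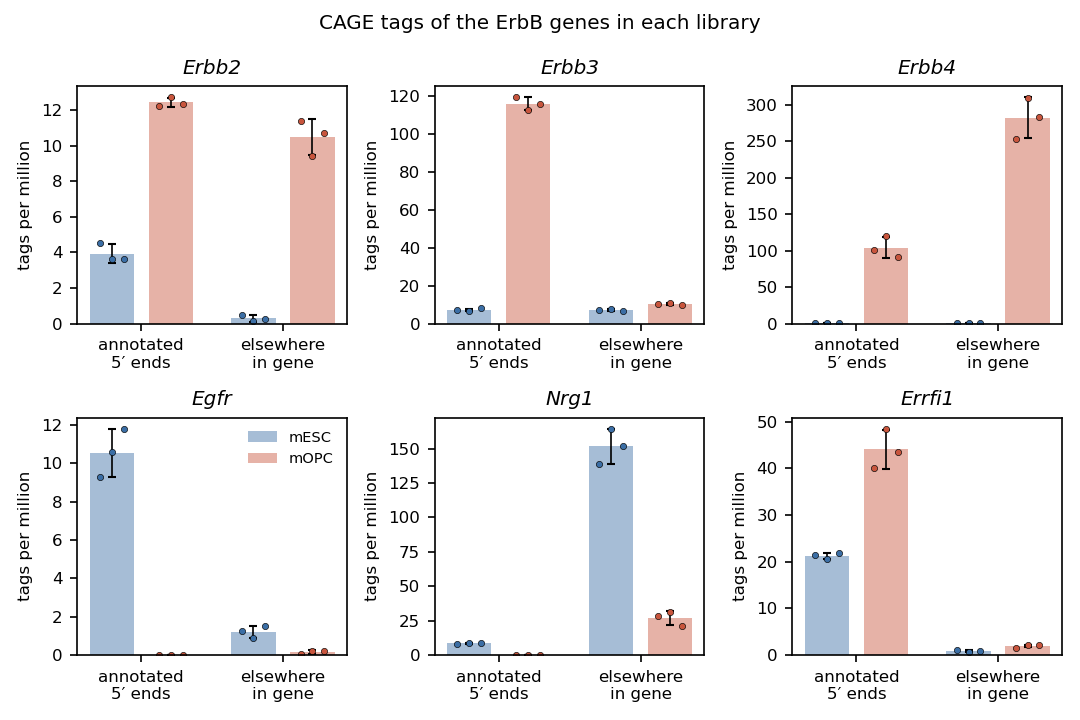
TPM at the annotated 5′ ends and elsewhere in the gene for the 6 genes, each panel with its own linear axis. Points are the 3 libraries of each line, bars the mean and error bars the SD. Erbb4 rises from near 0 in mESCs to a mean of 104 at its 5′ ends in mOPCs, and Egfr and Nrg1 have at most 1 5′ end tag in any mOPC library.

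Erbb3, the neuregulin receptor whose own kinase is weak, had 269, 107 and 146 tags at its 5′ end in the mESC libraries against 2611, 3236 and 4735 in mOPC libraries. This is 7.15 ± 0.751 TPM in mESCs and 116 ± 3.44 in mOPCs (SD, n = 3 each), a log2 fold change of 3.95 ± 0.10 (SE), and 8.96% of all genes tested had a larger one in that direction. The mOPC libraries were close to each other, and the lowest of them stood far above the highest mESC library.

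Erbb4, the neuregulin receptor with an active kinase, had 4, 2 and 1 tags in the mESC libraries against 2204, 3448 and 3755 in the mOPC libraries. Levels were 0.0933 ± 0.0346 and 104 ± 14.2 TPM (SD, n = 3 each). The ratio of the summed levels was 1069.5, with a 95% interval of 518.9 to 2661 that covers counting error only. The 3 mOPC libraries were all far above the mESC libraries, which held 7 tags in all.

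Erbb2 differed less at its 5′ ends. It had 172, 60 and 67 tags in the mESC libraries against 268, 367 and 506 in mOPC libraries, or 3.93 ± 0.532 and 12.4 ± 0.259 TPM (SD, n = 3 each), with a log2 fold change of 1.56 ± 0.14 (SE). In 22.9% of all genes tested the change in that direction was larger. With a window of 100 bp the log2 fold change was 1.153 ± 0.145 (SE). The 500 bp window holds all of exon 1, of which 73 bp are coding. Tags from the t-neu transgene that match it would be counted here too, and their part was not tested.

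Egfr showed the opposite pattern to Erbb3 and Erbb4. Its 5′ ends had 351, 176 and 217 tags in the mESC libraries, 10.5 ± 1.26 TPM (SD, n = 3), and 0, 0 and 1 in the mOPC libraries. The ratio of mESCs over mOPCs was 935, with a 95% counting interval of 167 to 36974. The single mOPC tag lay at the 5′ end of an internal transcript, 125947 bp downstream of the first one, so the first start region, with 744 mESC tags, had 0 mOPC tags and was at least 312-fold higher in mESCs (against a floor of 3 tags over the mOPC libraries).

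Nrg1, the neuregulin gene, has 18 annotated transcripts over 1069 kb of chromosome 8, which fall into 5 start regions. Its 5′ ends had 312, 141 and 165 tags in the mESC libraries, 8.55 ± 0.367 TPM (SD, n = 3), and 0, 1 and 1 in the mOPC libraries, a ratio of 388 with a 95% counting interval of 107 to 3213. Egfr and Nrg1 thus had nearly all of their start tags in mESCs.

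Errfi1, whose product restrains the receptors, was active in both lines. Its starts had 812, 341 and 401 tags in the mESC libraries against 881, 1398 and 1784 in mOPC libraries, 21.2 ± 0.670 and 44.1 ± 4.17 TPM (SD, n = 3 each), and a log2 fold change of 0.99 ± 0.10 (SE). In 30.3% of all genes tested the change in that direction was larger.

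The genes with many promoters used few of them. In Nrg1, the second start region from the 5′ end (chr8:32008609-32009991), at which 8 transcripts begin, 874538 bp downstream of the first region, held 278, 133 and 147 tags in the mESC libraries and 0 in each mOPC library. That is 90.3% of the 5′ end tags of Nrg1 in mESCs and at least 234-fold more than in mOPCs (floor of 3 tags over the mOPC libraries). The fourth region (chr8:31917150-31918891) held 30, 8 and 18 tags in mESCs and 0, 1 and 0 in mOPCs, 9.06% of the mESC 5′ end tags, with a ratio of 70.4 and a 95% counting interval of 12.1 to 2828. The other 3 regions held 1, 1 and 2 mESC tags, all in the library mESC 1, and at most 1 mOPC tag each.

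In Erbb4, 99.5% of the mOPC 5′ end tags fell in the first of 3 start regions. The position with the most tags was chr1:69108545, 486 bp upstream of the annotated 5′ end at 69108059, in a cluster of 39 bp (chr1:69108536-69108574) that runs past the end of the 500 bp window. Over the whole cluster there were 6, 3 and 2 tags in the mESC libraries against 2266, 3755 and 3986 in mOPC libraries, 0.149 ± 0.0367 and 110 TPM. Its log2 fold change was 9.20 ± 0.21 (SE), where 91.8% of 33739 clusters passed the test (45.4% higher in mOPCs, 46.4% higher in mESCs). The cluster was defined and entered the test through the mOPC libraries only. A window of 100 bp leaves out this cluster and holds 18.0 ± 2.10 TPM in mOPCs, and one of 1000 bp holds 139 ± 19.4. A smaller cluster at chr1:69107825 lay 234 bp downstream of the first annotated 5′ end and 69 bp upstream of the nearest annotated one. It had 207, 277 and 313 tags in the mOPC libraries and 0 in the mESC libraries.

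In Erbb3 most tags of both lines started in a cluster of 62 bp at the annotated 5′ end (chr10:128589629-128589690), with 195, 75 and 101 mESC tags and 2386, 2956 and 4325 mOPC tags. A second cluster 289 bp upstream, at chr10:128589941, had 30, 11 and 17 mESC tags and 90, 106 and 152 mOPC tags. Its log2 fold change of 1.99 ± 0.24 (SE) was smaller than the 4.12 ± 0.13 of the main cluster. The difference between both was not tested. No mESC library reached 1 TPM in the second cluster, so it was defined through the mOPC libraries.

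The shape of the starts differed among the genes. In Errfi1 1 position, chr4:150855072, held 63.7 ± 3.15% of the tags of its main start region in mESCs and 66.0 ± 1.36% in mOPCs (SD, n = 3 each). The span from the 10th to the 90th percentile of the tags was 6.33 ± 1.15 bp in mOPCs and 139 ± 6.56 bp in mESCs, where further tags lay downstream of the main position. Spans of all mESC libraries exceeded those of all mOPC libraries, and an exact permutation test (two-sided) of 3 against 3 cannot give a p below 0.1. How many of all genes separate in this span was not computed. In Erbb2 the starts were broad in both lines, spanning 125 ± 4.73 bp in mESCs against 202 ± 4.16 bp in mOPCs, with 6.11 ± 1.81% and 5.07 ± 0.692% of the tags at the top position, which was chr11:98412560 in mESCs and chr11:98412480 in mOPCs. Transgene tags in exon 1 would be counted in the Erbb2 span as well, and their part was not tested. The Errfi1 window shown above holds TATAAA and the Erbb2 window does not. By the span from the 10th to the 90th percentile, the Errfi1 start was narrower than that of Erbb2 in mOPCs only.

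**Figure D2:**
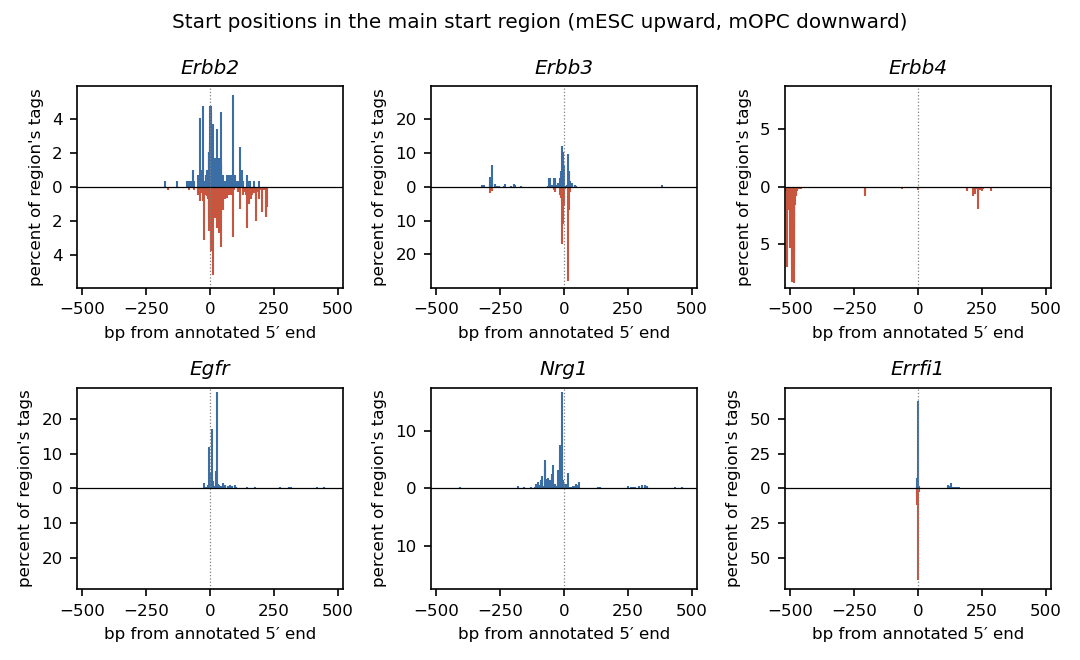
Percent of the tags of the main start region at each position, by distance in bp from the annotated 5′ end, mESCs drawn upward and mOPCs downward (3 libraries summed). Errfi1 has 1 dominant position in both lines and Erbb2 a broad spread. Most mOPC starts of Erbb4 lie about 486 bp upstream of the annotated 5′ end, with a smaller group downstream of it. Egfr and Nrg1 have no mOPC tags to draw. The Erbb4 region was taken with a window of 1000 bp and the others with 500 bp.

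The genes also differed in the share of a gene's tags that lay at its start regions. In Erbb2 the share was 93.3 ± 3.37% in mESCs and 54.3 ± 2.96% in mOPCs, and in Erbb3 it was 50.6 ± 4.49% in mESCs and 91.8 ± 0.425% in mOPCs (SD, n = 3 each). The libraries of the lines did not overlap in either gene, and the exact permutation test (two-sided) gave p = 0.1, the smallest value possible, for each. How many of all genes show no overlap in this share was not computed. For 5′ end levels, 91.4% of the genes tested had none. Over all genes, tags elsewhere were also higher in mOPCs by library totals, with a median log2 fold change of 0.83. Errfi1 had 96.3 ± 0.869% and 95.8 ± 0.342% of its tags at its starts. Erbb4 had 26.9 ± 2.11% in mOPCs (33.1 ± 2.34% with a window of 1000 bp) and Nrg1 had 5.35 ± 0.393% in mESCs.

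**Figure D3:**
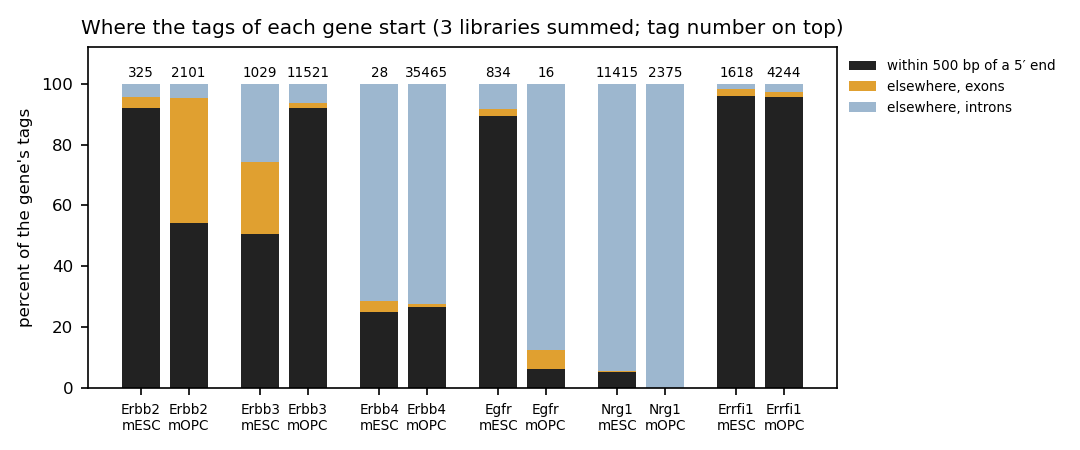
Percent of each gene's tags within 500 bp of an annotated 5′ end, elsewhere in exons and elsewhere in introns, for each line with its 3 libraries summed and the number of tags on top of the bar. The exon part is large for Erbb2 in mOPCs and for Erbb3 in mESCs, in Erbb3 mostly from 1 group of tags in exon 12. The intron part is large for Erbb4 and Nrg1. The mESC bar of Erbb4 rests on 28 tags and the mOPC bar of Egfr on 16.

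In the test of tags elsewhere in the gene, 5 of the 6 members passed, where 81.9% of 14516 genes did (41.1% higher in mOPCs, 40.8% higher in mESCs). Erbb2, Erbb4 and Egfr entered it through the line in which they were high. Scaling matters for this test. Normalization factors of edgeR (TMM) set the median log2 fold change of all genes at 0.01, and scaling by library totals alone set it at 0.83, with 8495 genes higher and 3963 lower in mOPCs in place of 5968 and 5919. Relative to the factors, Erbb2 rose by a log2 fold change of 4.06 ± 0.22 (SE) and Erbb4 by 9.11 ± 0.16, and Egfr and Nrg1 fell by 3.69 ± 0.37 and 3.33 ± 0.11 on the log2 scale. These 4 kept their direction under library totals, at 4.87, 9.91, -2.88 and -2.51. Erbb3 was at -0.25 ± 0.11 with the factors (edgeR adjusted p = 0.0264) and at 0.56 ± 0.11 with library totals (edgeR adjusted p = 4.09e-06), so it has no direction that holds. Errfi1 was at 0.36 ± 0.24 with the factors (edgeR adjusted p = 0.161) and at 1.18 ± 0.24 with library totals (edgeR adjusted p = 5.81e-06), so its call depends on the scaling. Without the library mESC 1, which held 19 of the 26 mESC tags, the value of Erbb2 with the factors was 4.86.

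In mOPCs, most Erbb2 tags away from the start regions lay in exons, 858 of 960, while in mESCs 12 of 26 did. They numbered 19, 2 and 5 in the mESC libraries against 250, 271 and 439 in mOPC libraries. Coding exons outside the first start region, 3695 bp in all, had 5, 1 and 4 tags in mESCs and 221, 259 and 416 in mOPCs, a density of 0.0369 ± 0.0213 and 2.64 ± 0.179 TPM per kb (SD, n = 3 each). The mOPC libraries were all far above the mESC libraries.

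The 3′ UTR of Erbb2 and its introns did not share this density. The 3′ UTR, 1051 bp, had 5, 4 and 8 tags in mOPCs, 0.178 ± 0.0430 TPM per kb, and the introns 0.0617 ± 0.0170. Coding exons were 15.3 ± 2.95 times as dense as the 3′ UTR within the mOPC libraries (SD, n = 3). For each tag in the first start region there were 0.827 ± 0.0620 coding exon tags in mOPCs and 0.0355 ± 0.0226 in mESCs.

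Tags were found in each of the exons 2 to 27 of Erbb2 in mOPCs. The densest was exon 19, with 5.94 ± 1.70 TPM per kb, and exons 10, 11 and 14 had at most 0.640. The last exon, 27, which holds the 3′ UTR, had 0.323 ± 0.109. Among 11602 genes with at least 100 start tags in mOPCs, the 0.752 exon tags per start tag of Erbb2 (over all its start regions) stood above 99.1% of them, where the median was 0.0161. In mESCs its 0.0401 stood above 79.8% of 12383 genes. Tags from the t-neu transgene of oli-neu that match mouse Erbb2 would be counted here, and their part in these values was not tested.

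**Figure D4:**
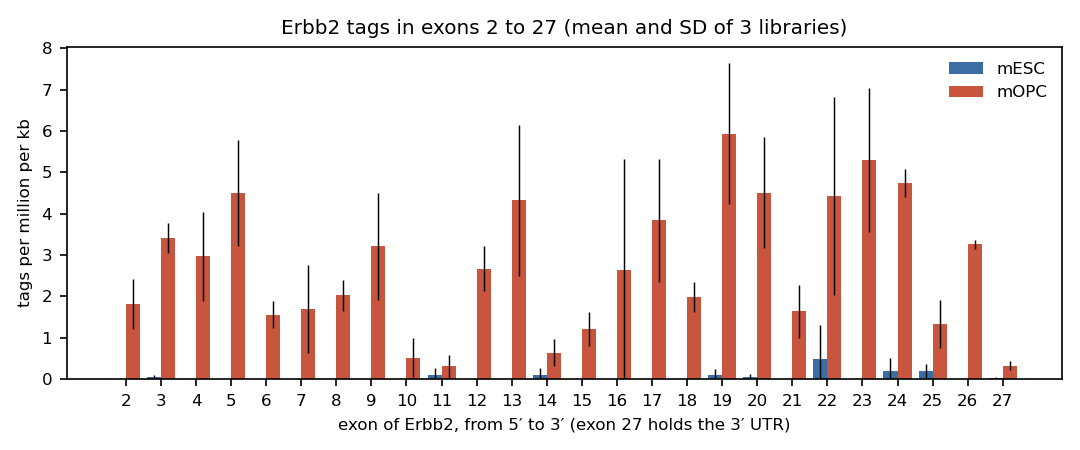
Erbb2 TPM per kb in exons 2 to 27, as the mean of 3 libraries with SD bars, for mESCs and mOPCs. The mOPC bars reach 5.94 in exon 19 and fall to 0.323 in exon 27, which holds the 3′ UTR, and the mESC bars stay at or below 0.476.

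Erbb2 also has an internal start region at the 5′ end of a non-coding transcript (chr11:98426580-98427580), with 1, 0 and 1 tags in mESCs and 11, 24 and 25 in mOPCs. Without it, the first start region alone had 171, 60 and 66 tags in mESCs and 257, 343 and 481 in mOPCs, with a log2 fold change of 1.34 ± 0.14 (SE), where 89.5% of 21820 start regions passed the test (41.9% higher in mOPCs, 47.6% higher in mESCs).

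In Erbb3, tags elsewhere in exons were higher per library total in mESCs (3.23 ± 0.406 TPM against 2.12 ± 0.221 in mOPCs) and tags in introns were higher in mOPCs (8.17 ± 0.577 against 3.73 ± 0.328, SD, n = 3 each). In all, elsewhere in the gene there were 263, 125 and 119 tags in the mESC libraries against 226, 307 and 406 in mOPC libraries. Internal groups were formed by joining all positions with tags up to 20 bp apart, keeping groups of at least 50 tags over all libraries. This rule was chosen after the values were seen. The largest internal group lay in exon 12 of 28 (chr10:128578428-128578540), 11191 bp from the 5′ end. It had 119, 53 and 45 tags in mESCs and 1, 2 and 3 in mOPCs. This is 2.92 ± 0.416 and 0.0628 ± 0.0150 TPM (SD, n = 3 each). The levels differed 46.6-fold, in the direction opposite to the 5′ end.

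The other internal groups of Erbb3 under this rule differed in direction. Groups in intron 4 (79, 40 and 37 mESC tags, and 9, 10 and 14 mOPC tags) and intron 3 (31, 20 and 17 mESC tags, and 2, 5 and 5 mOPC tags) were higher in every mESC library than in any mOPC library. Groups in intron 1, nearer to the 5′ end, were higher in mOPCs, the largest with 2, 0 and 4 mESC tags and 57, 63 and 75 mOPC tags. How often the lines separate in such groups over all genes was not computed. For 5′ end levels, the libraries of the lines did not overlap for 91.4% of the genes tested. In mESCs, 0.462 exon tags per start tag placed Erbb3 above 98.3% of genes, and in mOPCs 0.0185 placed it above 55.3%. The mESC value rests mostly on the exon 12 group, which held 217 of the 241 mESC exon tags.

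In Erbb4 the tags elsewhere were spread over the introns of a gene of 1076 kb. There were 5471, 8795 and 11393 intron tags in the mOPC libraries and 11, 3 and 6 in the mESC libraries. All 22 bins of 50 kb held mOPC tags, and 78.7% of the 17255 intron positions with tags in mOPCs held 1 tag each. The highest position held 98.

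The intron tags of Erbb4 were denser near the 5′ end. The bin from 50 to 100 kb had 0.809 ± 0.0866 TPM per kb in mOPCs and the bin from 500 to 550 kb had 0.0803 ± 0.0101 (SD, n = 3 each), and 72.9 ± 0.376% of the intron tags lay nearer to the 5′ end than to the 3′ end of the gene. The fall was not even, with a density of 0.259 ± 0.0378 between 900 and 950 kb. There were 2.73 intron tags for each start tag, above the median of 1.06 for 149 genes of at least 500000 bp, of which 24 had more. The 500 bp window cuts through the main start cluster of Erbb4. It holds 9407 mOPC start tags, where one of 1000 bp holds 12628, so the ratio and its rank depend on the window. On the opposite strand the body of Erbb4 had 253, 398 and 488 tags in mOPCs and 20, 8 and 8 in mESCs.

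**Figure D5:**
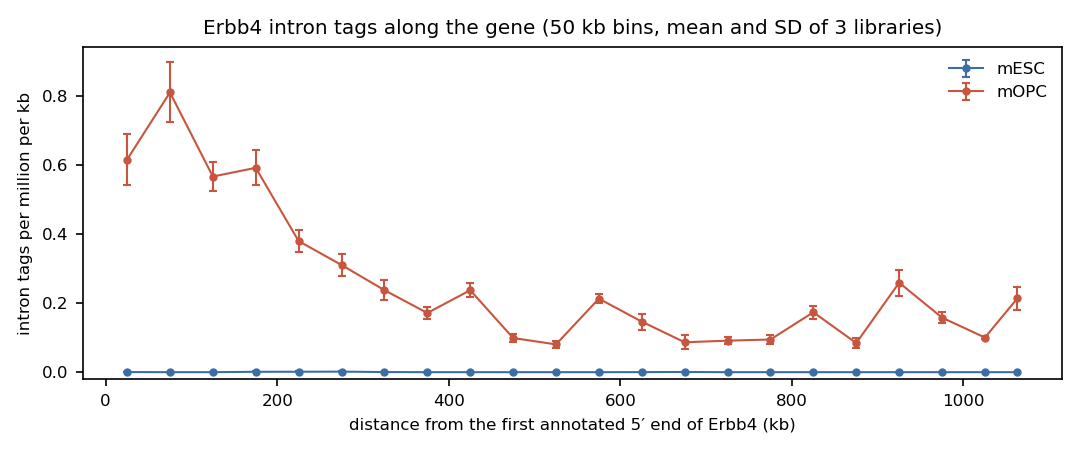
Intron tags of Erbb4 TPM per kb in bins of 50 kb, by distance in kb from the first annotated 5′ end, as the mean and SD of 3 libraries of each line. The mOPC line is highest at 50 to 100 kb, at 0.809, and stays above the mESC line, which lies near 0, along the whole gene.

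In Nrg1 the tags away from the starts came almost wholly from 1 place. At chr8:32477352 and the base beside it, in an intron on the minus strand with no other annotated gene over it, there were 5122, 2695 and 2737 tags in the mESC libraries against 600, 875 and 818 in mOPC libraries. This is 148.5 ± 13.3 and 25.9 ± 5.33 TPM (SD, n = 3 each), and 5.73-fold more in mESCs. Within 500 bp on either side there were 0 further tags on either strand.

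The place lies 406677 bp downstream of the first annotated 5′ end of Nrg1 and 467861 bp upstream of the next one, and it held 91.9% to 97.4% of the tags of the gene in each library. Among 2356 clusters with at least as many tags, 25 were no wider than 2 bp. Leaving the place out, the whole gene had 450, 182 and 229 tags in mESCs and 20, 23 and 39 in mOPCs, 11.7 ± 0.759 and 0.888 ± 0.0805 TPM, a 13.2-fold difference. Without it the log2 fold change of the tags elsewhere was -2.72 in place of -3.33.

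Egfr had few tags away from its starts, 47, 15 and 28 in the mESC libraries against 1, 6 and 8 in mOPC libraries, of which 14 of the 15 mOPC tags were in introns. Over the whole gene it had 398, 191 and 245 tags in mESCs and 1, 6 and 9 in mOPCs.

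Ligands of the receptors were not all low in mOPCs. Of the 11 ligand genes, 7 passed the filter on low counts at their 5′ ends. Of these, 4 were higher in mOPCs (43.4% of all genes tested) and 3 in mESCs (47.8% of all genes tested). Their median log2 fold change was 1.67. Nrg1 and Btc entered the test through the line in which they were high. Ligands of EGFR were among those higher in mOPCs: Tgfa had 3.64 to 4.86 TPM in the mESC libraries against 85.2 to 96.0 in mOPC libraries (log2 fold change of 4.34 ± 0.11, SE). Egf had 2.30 to 2.94 and 22.6 to 28.1 (3.25 ± 0.14), and Btc 0.120 to 0.326 and 1.81 to 2.29 (2.91 ± 0.32). Hbegf was higher in mESCs, at 14.9 to 16.0 against 8.88 to 10.2 (-0.76 ± 0.12).

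The neuregulin genes differed among themselves. Nrg2 was higher in mOPCs, with 2.10 to 2.50 TPM in the mESC libraries against 7.25 to 8.29 in mOPC libraries (log2 fold change of 1.67 ± 0.16, SE), and Nrg4 was higher in mESCs, with 9.71 to 10.4 against 1.28 to 1.83 (-2.75 ± 0.16). Nrg3, Areg and Ereg had at most 0.120 TPM in any library and 0 in every mOPC library, and Epgn was at 0 in all 6 libraries.

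The list of genes that cleave ErbB ligands or sort the receptors has 12 members. Of these, 6 were higher in mOPCs (43.4% of all genes tested), 4 in mESCs (47.8%) and 2 did not pass the test. Their median log2 fold change was 0.25. The largest change was in Rhbdf2, which helps the protease ADAM17 reach the cell surface, with 1921 tags in mESCs and 2 in mOPCs. Rhbdf2 entered the test through the mESC libraries. Its relative Rhbdf1 moved the other way (2.14 ± 0.13), as did Adam10, a sheddase (1.73 ± 0.09). Adam17 itself was at 42.3 to 46.4 TPM in mESCs and 42.9 to 52.6 in mOPCs and did not pass the test (0.02 ± 0.09).

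For this list and the next, the shares over all genes tested were 43.4% higher in mOPCs and 47.8% higher in mESCs. Of 13 feedback inhibitors of receptor tyrosine kinases, Errfi1 included, 8 were higher in mOPCs and 5 in mESCs, with a median of 0.67. The largest changes were in Spry1 (2.32 ± 0.09) and Socs5 (2.22 ± 0.10), higher in mOPCs, and Spry4 (-2.15 ± 0.12), higher in mESCs. Of 34 adaptors and kinases downstream of the receptors, 16 were higher in mOPCs, 13 in mESCs and 5 did not pass, with a median of 0.12. Fyn, a kinase of the SRC family that is known for its role in myelinating cells, rose by 3.82 ± 0.09 on the log2 scale. Grb7, an adaptor that binds ERBB2, had 2536 tags in mESCs and 1 in mOPCs, and entered the test through the mESC libraries.

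Of 14 genes known to respond to ERK signalling, which the receptors activate, 7 were higher in mOPCs, 6 in mESCs and 1 did not pass, with a median of 0.11. The largest changes were in Phlda1 (4.86 ± 0.10), higher in mOPCs, and in Ier3 (-6.17 ± 0.21) and Fosl1 (95 tags in mESCs and 1 in mOPCs), higher in mESCs. Ier3 and Fosl1 entered the test through the mESC libraries. Among all genes tested, 43.4% were higher in mOPCs and 47.8% in mESCs. The lists share Dusp6, Spry2, Spry4 and Spred1 with the feedback inhibitors.

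Some genes beside the members moved with them and others did not. Mien1, whose annotation overlaps the end of Erbb2, had 15.9 TPM in mESCs and 14.2 in mOPCs, with a log2 fold change of -0.24. Pgap3, 11980 bp away on the other side, had 3.68 and 11.9 (1.61). Pa2g4, 1536 bp from Erbb3 whose product is known to bind ErbB3, had 232 in mESCs and 62.6 in mOPCs (-1.96), and Rps26, on its other side, had 55.6 and 6.76 (-3.08). Next to Erbb4, Cps1 had 0 tags in both lines and Ikzf2 had 7.27 and 63.7 (3.10). Beside Egfr, Sec61g was at -0.89 and Fbxo48 at -0.48, beside Nrg1, Fut10 was at 0.36 and Wrn at -0.74, and beside Errfi1, Slc45a1 was at 2.90 and Park7 at -1.96, all as log2 fold changes at 5′ ends.

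The protein-coding genes whose 5′ end levels over the 6 libraries were most like those of each member were found by the root mean square difference of centred log2(TPM + 0.1), among 9200 to 9599 genes with at least 10 TPM in the line where the member was higher. They were Pllp (0.0512) and Kif21b (0.0518) for Erbb3, Ptprz1 (0.128) and Pdzrn4 (0.158) for Erbb4, and Ppp2r5b (0.0370) and Mllt1 (0.0418) for Erbb2. For Egfr they were Dmrt1 (0.0580) and Zfp985 (0.0754), for Nrg1 Dera (0.0680) and Peg10 (0.0951), and for Errfi1 Tmem70 (0.0163) and Slc9a7 (0.0191). Pllp encodes a protein of myelin, and Ptprz1 a receptor phosphatase of glial precursors. With 2 lines, this likeness says little more than that the difference between the lines was of a similar size on this scale. The added 0.1 TPM limits that difference for members near 0 in a line. The fitted log2 fold change was -6.715 for Zfp985 against -9.45 for Egfr, and -6.285 for Peg10 against -8.39 for Nrg1.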

How the data were processed

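Nuclear CAGE libraries of mESCs and mOPCs (3 each) were analysed from the deposited counts, whole numbers of tags per start position and strand, not normalized. Per the study's methods, the authors trimmed the linkers, aligned the tags to mm10 with bowtie, kept unique alignments and called start positions with CAGEr, while the submitters' processing notes name CASAVA 1.8 and BWA 0.5.9.

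Tags were summed per gene of GENCODE vM21 within 500 bp of annotated 5′ ends and over the rest of the gene, on the gene's strand. They were tested with edgeR 4.0.16 in R 4.3.3 (quasi-likelihood, robust, TMM, filterByExpr, Benjamini-Hochberg). DESeq2 1.42.0 was an alternative, and the others are named in the closing section. Start clusters joined positions of at least 1 TPM in a library that lay within 20 bp. The scripts were tested on simulated counts. Single values were compared by exact permutation tests, where 3 against 3 libraries allow no p below 0.1. Intervals and floors cover counting error only. The genes and lists were chosen with earlier results of these data known. Besides the members, text values were given for all ligands, for up to 3 genes of each other list with the largest change (1 of them is not reported here), for the nearest protein-coding gene on each side and for the 2 most alike genes. Adam17 was added after its values were seen, as were the start clusters, the internal groups of Erbb3, the whole-gene sums and the fit without the Nrg1 position. Markers of astrocytes (1 of 3 tested genes higher in mOPCs), neurons (1 of 3), Schwann cells (1 of 2), fibroblasts (1 of 1) and endoderm and trophoblast (0 of 3) were also counted.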

Additional observations from a re-analysis of the deposited data

How the results depend on the processing

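The 5′ end log2 fold changes of the 6 genes kept their direction and passed the test in all 96 alternatives run: library totals, DESeq2's size factors, DESeq2, no filter, windows of 100 and 1000 bp, thinned libraries, a replicate block, positions of 1 gene only, whole genes and each library left out. Sizes moved by over 1.5 times with whole genes for Erbb2 (2.29), Erbb3 (3.05), Egfr (-6.13) and Nrg1 (-2.69), and the fitted value of Egfr (-9.45) was -11.05 without mOPC 3, which held its 1 mOPC tag. Fitted values of Erbb4, Egfr and Nrg1, each near 0 in a line, also moved by over 1.5 times with thinning (Egfr -8.71, Nrg1 -10.16) or another window (Erbb4 11.90 at 100 bp, Nrg1 -9.01 at 100 bp and -7.62 at 1000 bp). Of 96 alternatives for the tags elsewhere, 85 gave the same call. Erbb3 was at -0.25 and turned to 0.56 with library totals; it no longer passed with DESeq2 (-0.24), without the filter (-0.15) or with a window of 100 bp (-0.10), and ranged from -0.31 to -0.17 with each library left out, losing the call without mESC 2, mOPC 1, mOPC 2 or mOPC 3. Errfi1 was at 0.36, passed at 1.18 with library totals, turned to -0.71 with a window of 100 bp, which counts the tags beside its start as elsewhere, and ranged from 0.24 to 0.62 with each library left out, passing without mOPC 1 (0.55). Erbb2 was at 4.06, 4.74 with thinning and 3.82 to 4.86 with each library left out, highest without mESC 1. The cause of the other changes was not tested. The difference in the share of tags at start regions (mOPCs minus mESCs, percentage points) moved to -48.98 for Erbb2, 45.86 for Erbb3, 12.42 for Errfi1 and -4.68 for Nrg1 with a window of 100 bp, and to 34.51 for Erbb3 with 1000 bp. Counts of genes, start regions and clusters called stayed within 1.5 times in every alternative run.

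Replicate numbers did not pair the libraries: deviations of same-numbered libraries correlated at -0.00249, 0.0592 and 0.00701. With a replicate block, 15219 genes were called at 5′ ends in place of 15238, 11656 in place of 11887 elsewhere and 19369 in place of 19528 start regions, and no call on the 6 genes changed. Depth limits the fold changes of Egfr and Nrg1, with 1 and 2 mOPC tags at their 5′ ends, and of Erbb4, with 7 mESC tags.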
